A study of Homo sapiens with 8 samples.

Results

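The 48 genes described here are interferon-stimulated genes, measured in human IMR90 fibroblasts kept in medium conditioned by cells entering senescence. They were chosen by name, as genes known to be switched on by interferon. Earlier results of these data were known at that time, which limits each comparison of the members with all genes. All 48 were found by symbol among the 27696 genes of the count table. Recipients were normal IMR90 cells, a strain of primary human lung fibroblasts, incubated for 3 days with medium that IMR90 ER:RAS cells had conditioned after 0, 4, 7 or 10 days with 4-OHT. ER:RAS is a RAS oncoprotein fused to a piece of the estrogen receptor, which 4-OHT (4-hydroxytamoxifen) switches on, so that the donor cells pass into oncogene-induced senescence. Groups are written D0, D4, D7 and D10 by the donor's days with 4-OHT, and 2 independent experiments gave 1 library each per group, 8 in all. D0 recipients received medium of the same ER:RAS cells before induction. In all groups the recipients are 1 cell strain and the donors derive from that strain, and nothing in the labels says whether the 4 media of an experiment came from 1 donor culture.

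Interferons are secreted proteins that bind paired receptors on the cell surface. The receptors activate the kinases JAK1 and TYK2, which phosphorylate transcription factors such as STAT2. STAT2 with IRF9 enters the nucleus as part of a complex that binds the interferon-stimulated response element (ISRE) in the promoters of its target genes. The products of these genes sense viral RNA, block its translation, degrade it, or stop virus entry and budding. Many fibroblast cultures transcribe them at a low level without added interferon.

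The ISRE is shown here because 24 of the 38 members with a promoter entry (63.2%) hold its core, against 1255 of all 35116 promoters (3.57%). The promoters are RefSeq windows of 300 bases on GRCh38.p14, from 250 bases before to 50 after a gene's start. The core was searched as GAAA, 2 free bases and GAAA on both strands, and overlapping matches were counted. Below, 4 stretches are printed 5′ to 3′ along a member, with matches of the core or of its reverse complement in capitals. All these matches lie before the start of the gene, and the last bases of the IFI44 stretch run past it. Those of IFIT1 and IFI44 carry the reverse complement, and in ISG15 a pair of matches overlaps.
IFIT1: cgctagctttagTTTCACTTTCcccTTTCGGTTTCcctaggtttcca
ISG15: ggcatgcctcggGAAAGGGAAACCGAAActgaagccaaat
IFI6: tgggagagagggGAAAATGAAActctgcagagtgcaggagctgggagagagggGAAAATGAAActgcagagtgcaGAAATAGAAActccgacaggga
IFI44: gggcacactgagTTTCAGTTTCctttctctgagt
They lie at chr10:89392495-89392541 on the plus strand (IFIT1), chr1:1013372-1013411 on the plus strand (ISG15), chr1:27672264-27672360 on the minus strand (IFI6) and chr1:78649759-78649792 on the plus strand (IFI44). None of the 4 overlaps an exon in GENCODE 29. The IFIT1 stretch lies within LIPA and the IFI6 stretch within AL445490.1, both transcribed from the other strand, and the ISG15 stretch lies in an intron of longer ISG15 transcripts. Another 2 motifs were searched on both strands. The gamma-activated site (TTC, 3 free bases, GAA) was in 31.6% of member promoters against 7.66% of all promoters, and a kappa-B-like sequence (GGG, 5 free bases, CC) in 57.9% against 58.7%. A match is a description of these letters and does not show that a factor binds there.

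Reads were counted per gene by the authors, and the total per library ran from 11708193 to 13395912. Values are given below as CPM, the counts scaled to a common library size after TMM adjustment, always with experiment 1 first and experiment 2 second. In every group the libraries of experiments 1 and 2 differed, and the D10 pair was the farthest apart, with a correlation of log2 CPM across the 13798 genes tested of 0.954 against 0.963 to 0.975 in the other groups. The D10 library of experiment 2 stood apart in fibroblast genes. COL1A1, the main chain of type I collagen, was at 1295 CPM in it and between 8694 and 14499 CPM in the other 7 libraries. All 8 fibroblast markers examined were detected, all 8 were below D0 in both experiments in D10, and their summed level was 9633 CPM in that library and between 29649 and 46255 CPM in the others. Leukocyte, epithelial and endothelial markers together summed to under 10 CPM in each library, and PTPRC, the defining leukocyte marker, had at most 1 count. The part of these differences in the results was not tested. In bulk RNA, fewer cells that express a gene and less of its RNA per cell cannot be told apart. Levels below are therefore given for each experiment, and each gene called with the block in D10 is given with the libraries whose omission ended its call.

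In D0 medium the recipients already transcribed most of these genes. Per kilobase of exon, the only scale on which levels of different genes are compared here, the order ran from IFITM3 at 357 ± 128 CPM per kb (SD, n = 2) to RSAD2 at 0.0573 ± 0.0171. IFITM3, which blocks the fusion of enveloped viruses with endosomes, was followed by IFI6, an interferon-induced membrane protein, at 188 ± 71.2, and IFITM2 at 89.0 ± 24.5. ISG15, a ubiquitin-like modifier, stood at 82.5 ± 33.4 and its neighbour IFITM1 at 51.3 ± 17.3 CPM per kb. The D0 libraries of IFITM3, IFI6 and IFITM2 did not overlap, whereas IFITM2 overlapped with ISG15 and ISG15 with IFITM1. IFIT3 (15.8 ± 1.76) and IFIT1 (11.8 ± 2.10) came 9 and 10 in the order, and OASL, XAF1, MX2, RTP4, ISG20, HERC5 and RSAD2 closed it, each between 0.0573 and 0.0978 CPM per kb.

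**Figure D1:**
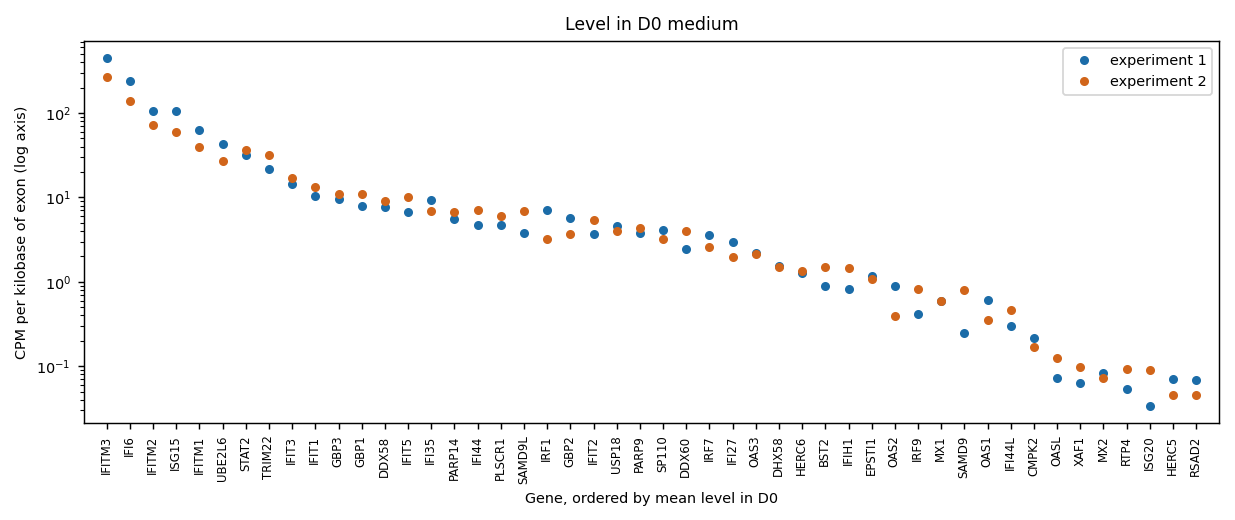
Level of each of the 48 genes in D0 medium, in CPM per kilobase of exon on a log axis, with 1 point per library coloured by experiment and genes ordered by their mean. Levels spread from 357 CPM per kb for IFITM3 to 0.0573 for RSAD2, and points of experiments 1 and 2 swap order from gene to gene.

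Taken by count, 43 of the 48 members had enough reads to be tested, and OASL, RSAD2, HERC5, XAF1 and RTP4 did not. Of those tested, 2 (CMPK2 and MX2) passed the filter on low counts only through D0, which favours lower later levels for them. No member was at the floor, defined as at most 3 counts in each library of a group, in all 4 groups. RTP4, which helps receptors reach the cell surface, had 1 and 2 counts in D0 and 3 and 0 in D10. RSAD2 (viperin), an antiviral enzyme, had 3 and 0 counts in D4, 2 and 2 in D7 and 6 and 3 in D10. XAF1, an apoptosis-related factor, had 5 and 9 counts in D0 and 1 and 0 in D10, and 38.3% of its exon bases overlap a gene on the other strand. The mean D0 level of XAF1 was 2.23-fold above the floor of 3 counts in D10. This ratio takes the D0 counts of 5 and 9 as exact and sets TMM-scaled CPM against a floor on raw totals. It is therefore not a lower bound on the fall.

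Across the set, most levels in D4 medium were below those in D0, the median member was nearer to D0 in D7, and it was lowest in D10. Summed over the 48 genes they made 2202 and 1877 CPM in D0, 1839 and 1422 in D4, 1818 and 1583 in D7, and 1438 and 893 in D10. The D10 sum was thus the lowest of its experiment both times, and IFITM3 supplied between 14% and 31.9% of the sum. The median of the 48 members differed from D0 on the log2 CPM scale (prior count 2, each library against D0 of its own experiment) by -0.34 and -0.67 in D4, -0.22 and -0.29 in D7, and -0.55 and -1.57 in D10. For the 43 members with enough reads to be tested it was -0.36 and -0.66 in D4, -0.21 and -0.38 in D7, and -0.59 and -1.66 in D10, and for all genes tested it was between -0.01 and 0.00. From D4 to D7 the median of the 48 moved by 0.14 and 0.21, and from D7 to D10 by -0.37 and -1.14. The D0 libraries are shared by all comparisons with D0.

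Direction was shared by most members. In D4, 37 of the 48 were below D0 in both experiments, as were 35 of the 43 tested (81.4%), against 28.9% of all genes tested. In D7 it was 25 of 48 and 23 of the 43 tested (53.5%), against 31% of all genes. In D10 it was 36 of 48 and 35 of the 43 tested (81.4%), against 32.3%. Both D10 libraries lay below both D0 libraries for 31 of 48 members and 30 of the 43 tested (69.8%), against 16% of all genes. CMPK2 and MX2, which passed the filter only through D0, are among these 30 and among the 35 in D10. In experiment 1 alone, 38 members were below D0 in D10.

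**Figure D2:**
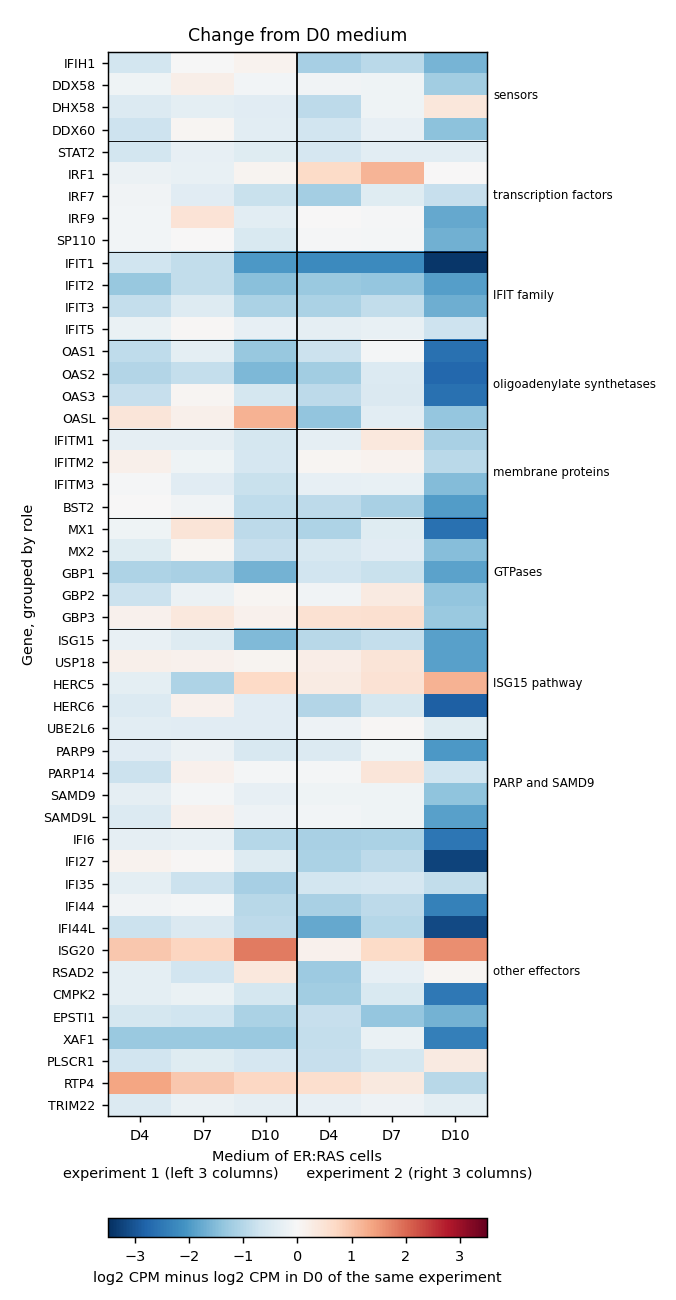
Change of each gene in D4, D7 and D10 medium from D0 of the same experiment, as a difference of log2 CPM (blue lower, red higher), with experiment 1 in the left 3 columns, experiment 2 in the right 3, and genes grouped by role. Of the 48 genes, 36 are below D0 in both D10 columns, and the D10 column of experiment 2 is the darkest.

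By the main test, edgeR's quasi-likelihood test by group with Benjamini-Hochberg adjustment over all genes, 0 of the 43 members were called at 0.05 in D10 against D0, where 0.29% of all genes were called. At an unadjusted p under 0.05 there were 16 members, 15 of them lower. The share of all genes at that unadjusted p is not given, here or below, so such counts describe the members alone. DESeq2, run as an alternative, called 5 (IFIT1, IFIT2, IFIT3, GBP1 and IFI44, all lower) of 45 members with an adjusted p, against 2.59% of all genes. With the experiment added as a replicate block, edgeR called 14 members against 4.99% of all genes: 13 of the 43 tested were lower (30.2%, against 2.45%) and 1 was higher (2.33%, against 2.54%). Without the D10 library of experiment 2 the blocked fit called 10 members, all among the 14, and EPSTI1, IFITM2, ISG20 and MX1 were no longer called. Without the D10 library of experiment 1, when the fit rests on the library that stood apart, it called 33. Leaving out the D0 library of experiment 2 left 3 calls, and the range over all 8 libraries was 3 to 33. IFIT1, ISG15 and GBP1 were called whichever library was left out, and IFIT2, IFIT3 and IFI6 lost their call only without the D0 library of experiment 2. The share of all genes called in the fits with 1 library left out is not given here. The member counts of those fits therefore show only how the calls depend on single libraries.

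No member was called in the earlier media. In D4 against D0 edgeR called 0 members without the block (0% of all genes) and 0 with it (0.275% of all genes). At an unadjusted p under 0.05 there were 5 and 15 members, all lower. DESeq2 called 0, with 5 at that unadjusted p. In D7 against D0 it was 0 members without (0% of all genes) and 0 with the block (1.25% of all genes), with 5 and 9 members at an unadjusted p under 0.05, all lower, and DESeq2 called 0, with 4. The steps between neighbouring media gave no calls either. For D7 against D4, edgeR called 0 members without (0% of all genes) and 0 with the block (0% of all genes), with 0 and 1 at an unadjusted p under 0.05. D10 against D7 gave 0 without (0% of all genes) and 0 with the block (0.319% of all genes), with 5 and 25 members at that unadjusted p, 24 of the 25 lower. DESeq2 called 0 in both steps, with 0 and 12 members at an unadjusted p under 0.05. The share of all genes called by DESeq2 is given for D10 against D0 alone.

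The IFIT genes held the most negative fitted change of the 43 members tested, that of IFIT1. The IFIT1 product binds viral RNA that lacks the cap methylation of the host. All 4 IFIT genes lie in 1 cluster on chromosome 10, and 3 of them were called with the block in D10. IFIT1 stood at 47.5 and 61.2 CPM in D0, 29.5 and 13 in D4, 26.2 and 12.9 in D7, and 11.6 and 5.68 in D10. Every D10 library was below every D0 library, by 4.08-fold in experiment 1 and 10.8-fold in experiment 2. Fitted log2 changes, here and below, are given ± a standard error from the fit. That of IFIT1 in D10 was -2.65 ± 0.54 without the block (edgeR adjusted p = 0.0964) and -2.79 ± 0.37 with it (edgeR adjusted p = 0.00439). Its D4 value was -1.36 ± 0.51 without the block, and was not called (edgeR adjusted p = 1 without and 0.147 with the block).

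IFIT2, which promotes apoptosis and restrains virus replication, was at 15 and 22.3 CPM in D0, 5.90 and 8.95 in D4, 8.25 and 8.58 in D7, and 5.38 and 5.76 in D10. IFIT2 lay at least 1 log2 unit below D0 in each later library of its own experiment except D7 of experiment 1, at -0.85. The D10 change was -1.74 ± 0.32 (edgeR adjusted p = 0.0779 without the block) and -1.72 ± 0.22 with it (edgeR adjusted p = 0.00421). IFIT3, the partner that stabilises IFIT1, stood at 38.5 and 45.1 CPM in D0, 21.6 and 20.8 in D4, 28.3 and 24.9 in D7, and 17.8 and 13.6 in D10. No later library reached its D0 level, and the D7 values lay above the D4 values in both experiments. Its D10 change was -1.41 ± 0.23 (edgeR adjusted p = 0.0606 without the block) and -1.42 ± 0.18 with it (edgeR adjusted p = 0.00363). IFIT5 was at 26.9 and 40.1 CPM in D0, 22.8 and 32.4 in D4, 27.6 and 33.6 in D7, and 21.9 and 24.1 in D10, and was not called (edgeR adjusted p = 0.123 with the block). Of the exon sequence of IFIT2, 7.50% of 50-base words occur in other genes.

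**Figure D3:**
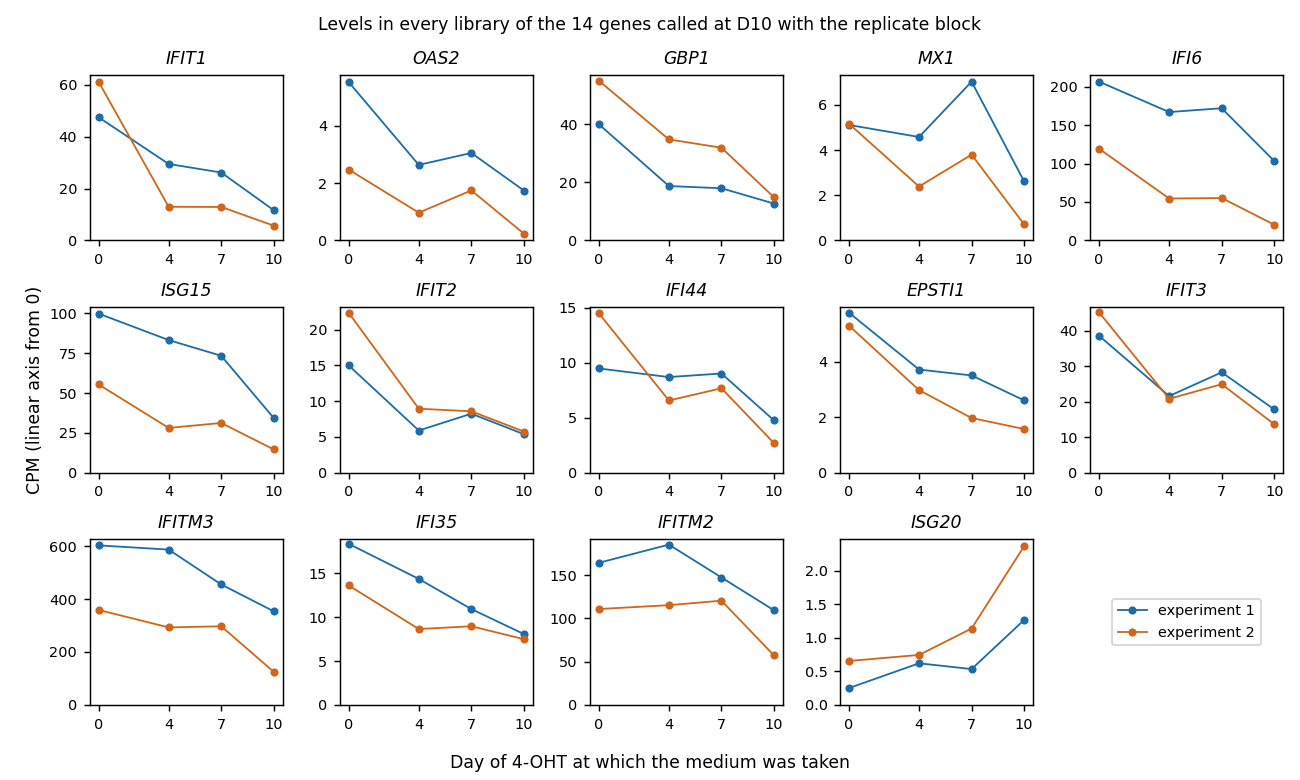
CPM of the 14 genes called in D10 against D0 with the replicate block, on linear axes from 0, against the day of 4-OHT at which the medium was taken, with 1 line per experiment and 1 point per library. In 13 panels both lines end below their D0 value, and in the ISG20 panel both end above it.

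Oligoadenylate synthetases make the second messenger that activates RNase L, which cuts RNA. OAS2 stood at 5.53 and 2.47 CPM in D0, 2.64 and 0.969 in D4, 3.06 and 1.75 in D7, and 1.74 and 0.237 in D10. This was a D10 count of 22 and 3, and the log2 change of -2.11 ± 0.44 was called with the block alone (edgeR adjusted p = 0.623 without and 0.0302 with it). The OAS2 call was lost without either D0 library, either D4 library or the D7 library of experiment 2. OAS1 was at 3.02 and 1.75 CPM in D0, 1.55 and 0.969 in D4, 2.37 and 1.67 in D7, and 1.11 and 0.158 in D10, with a D10 difference of -1.96 ± 0.50 (edgeR adjusted p = 0.0675 with the block). OAS3, the most abundant by count, was at 18.2 and 17.6 CPM in D0, 10.2 and 9.32 in D4, 19.2 and 12.3 in D7, and 11.8 and 2.76 in D10. Its D7 value of experiment 1 was above D0, and its D10 value in experiment 2 the lowest of the 8. OASL, a catalytically inactive relative, had 3 and 6 counts in D0 and 10 and 1 in D10, so that the experiments lay on opposite sides of D0.

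The IFITM proteins sit in membranes and restrict virus entry. IFITM3, the member with the most reads, was at 602 and 359 CPM in D0, 587 and 293 in D4, 455 and 297 in D7, and 354 and 125 in D10. Both D10 values were below both D0 values, although the D10 value of experiment 1 differed from the D0 value of experiment 2 by less than the spread within D0. The log2 change was -1.01 ± 0.55 without the block (edgeR adjusted p = 0.831) and -1.12 ± 0.22 with it (edgeR adjusted p = 0.0248). The IFITM3 call was lost without either D0 library or the D4 library of experiment 2. IFITM2 stood at 164 and 111 CPM in D0, 185 and 115 in D4, 147 and 120 in D7, and 109 and 57.1 in D10, and was called with the block (-0.76 ± 0.17, edgeR adjusted p = 0.0420 against 0.800 without). The IFITM2 call was lost without any 1 library other than D7 or D10 of experiment 1. Its levels in D4 were above D0 in both experiments and those in D10 below. IFITM1 was at 68.6 and 42.2 CPM in D0, 55.1 and 34.2 in D4, 55.1 and 54.7 in D7, and 44.9 and 19.2 in D10, and was not called (edgeR adjusted p = 0.102 with the block). These 3 genes are near copies of one another on chromosome 11, and 32.0% (IFITM1), 34.1% (IFITM2) and 17.4% (IFITM3) of their 50-base words occur in another gene, so that their counts may be shared. Of the exon bases of IFITM3, 21.3% overlap a gene on the other strand, and the strand setting of the counting is not given in the sources used here. BST2 (tetherin), which holds budding virus at the membrane, had 12 and 23 counts in D0 and 6 and 4 in D10.

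Of the 5 GTPases, GBP1 and MX1 were called with the block. GBP1, a guanylate-binding protein that attacks intracellular pathogens, was at 40.0 and 55.0 CPM in D0, 18.7 and 34.7 in D4, 17.9 and 31.9 in D7, and 12.7 and 14.8 in D10. It was below D0 in each later library of its own experiment, and in D10 by 3.15-fold and 3.71-fold. The D10 log2 change was -1.79 ± 0.39 without the block (edgeR adjusted p = 0.121) and -1.77 ± 0.19 with it (edgeR adjusted p = 0.00221). Its relatives GBP2 and GBP3 were not called. GBP2 stood at 36.2 and 23.1 CPM in D0, 21.3 and 21.3 in D4, 31.5 and 28.6 in D7, and 38.1 and 8.76 in D10. GBP3 was at 40.7 and 46.7 CPM in D0, 45.4 and 67.7 in D4, 53.0 and 68.4 in D7, and 45.5 and 19.0 in D10. Both were above D0 in D10 of experiment 1 and below it in experiment 2. Of their 50-base words, 9.62% (GBP1), 10.2% (GBP2) and 4.76% (GBP3) occur in other genes. MX1, a dynamin-like GTPase that traps viral nucleoproteins, was at 5.11 and 5.17 CPM in D0, 4.58 and 2.39 in D4, 7.03 and 3.80 in D7, and 2.61 and 0.710 in D10. MX1 was called in D10 with the block (-1.77 ± 0.42, edgeR adjusted p = 0.0494 against 0.509 without), but the call was lost without any 1 library other than D0 or D10 of experiment 1. Its D7 level in experiment 1 was above D0. Its neighbour MX2 had 13 counts in each D0 library and 7 and 3 in D10.

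ISG15 and its enzymes attach a ubiquitin-like tag to newly made proteins. ISG15 itself stood at 99.9 and 55.4 CPM in D0, 83.3 and 28.1 in D4, 73.4 and 31.2 in D7, and 34.3 and 14.6 in D10. The 3 values of experiment 1 from D0 to D7 exceeded all of those of experiment 2, while the D10 difference from D0 was -1.54 and -1.91. Fitted by group it was -1.67 ± 0.66 (edgeR adjusted p = 0.534) and with the block -1.74 ± 0.18 (edgeR adjusted p = 0.00173), the lowest adjusted p among the members. UBE2L6, the conjugating enzyme, was at 93.1 and 59.9 CPM in D0, 72.5 and 52.6 in D4, 71.2 and 61.5 in D7, and 70.7 and 44.2 in D10. USP18, which removes the tag, was at 9.64 and 8.59 CPM in D0, 10.9 and 10.1 in D4, 10.7 and 11.7 in D7, and 10.4 and 2.21 in D10. Neither was called in any medium. USP18 shares 23.4% of its 50-base words with other genes, chiefly USP41. The ligase HERC5 had 4 and 3 counts in D0 and 8 and 9 in D10, and its relative HERC6 88 and 108 counts in D0 and 70 and 12 in D10.

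The RNA sensors of the RIG-I family, which start the interferon response when they meet viral RNA, gave no call. DDX58 (RIG-I) was at 33.9 and 39.5 CPM in D0, 30.7 and 36.0 in D4, 38.7 and 35.9 in D7, and 31.7 and 17 in D10. Apart from D10 of experiment 2, its values in the later media were thus within 30.7 to 38.7 CPM. IFIH1 (MDA5) was at 4.19 and 7.35 CPM in D0, 2.64 and 3.21 in D4, 4.12 and 3.72 in D7, and 4.59 and 2.29 in D10. DHX58 (LGP2), a regulator of both, was at 5.95 and 5.75 CPM in D0, 4.19 and 2.98 in D4, 4.66 and 5.16 in D7, and 4.51 and 7.65 in D10. In D10 the experiments lay on opposite sides of D0 for both genes. DDX60, a helicase linked to the same pathway, was at 16.6 and 27.2 CPM in D0, 10.0 and 16.9 in D4, 17.3 and 22.0 in D7, and 12.7 and 10.0 in D10 (edgeR adjusted p = 0.108 with the block).

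Nor did the transcription factors pass the test. STAT2, which the receptor kinases phosphorylate, was at 193 and 225 CPM in D0, 124 and 150 in D4, 159 and 172 in D7, and 144 and 173 in D10, and its lowest level was in D4 both times. IRF1, an activator of many of these genes, was at 55.2 and 25.4 CPM in D0, 47.7 and 40.7 in D4, 45.7 and 57.9 in D7, and 59.2 and 25.6 in D10, and 22.0% of its exon bases overlap a gene on the other strand. Its D0 and D10 libraries overlapped. IRF7, which amplifies interferon production, stood at 9.47 and 6.84 CPM in D0, 8.69 and 2.91 in D4, 7.10 and 5.01 in D7, and 5.46 and 3.86 in D10. IRF9, the DNA-binding part of the complex with STAT2, had 19 and 43 counts in D0 and 15 and 10 in D10, and 48.4% of its exon bases overlap AL136295.5 on its own strand. SP110, a nuclear body protein, was at 27.9 and 21.9 CPM in D0, 26.0 and 21.2 in D4, 28.4 and 21.0 in D7, and 19.2 and 6.78 in D10 (edgeR adjusted p = 0.0813 with the block).

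PARP9 and PARP14 regulate interferon signalling by ADP-ribosylation, and SAMD9 and SAMD9L restrict poxviruses. In experiment 1 their D10 differences from D0 were between -0.56 and -0.06, and in experiment 2 between -2.02 and -0.69. PARP9 was at 33.9 and 38.6 CPM in D0, 25.5 and 27.6 in D4, 29.2 and 34.6 in D7, and 23.0 and 9.39 in D10, and was not called (edgeR adjusted p = 0.0919 with the block). PARP14 stood at 59.0 and 70.5 CPM in D0, 34.7 and 67.4 in D4, 65.3 and 94.5 in D7, and 56.6 and 43.8 in D10. It was above D0 in D7 and below it in D4 and D10, in both experiments. SAMD9L was at 27.0 and 48.8 CPM in D0, 19.3 and 45.6 in D4, 29.8 and 43.8 in D7, and 23.9 and 12.9 in D10. SAMD9 was at 1.68 and 5.53 CPM in D0, 1.32 and 5 in D4, 1.60 and 4.94 in D7, and 1.35 and 1.97 in D10, higher in experiment 2 in every medium.

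Among the other effectors 4 were lower and 1 was higher in D10 with the block. IFI6 stood at 206 and 119 CPM in D0, 167 and 54.5 in D4, 172 and 55.1 in D7, and 103 and 20.4 in D10. Both series ended lowest in D10, and the change was -1.76 ± 0.30 with the block (edgeR adjusted p = 0.0137 against 0.892 without). IFI44, which limits virus replication, was at 9.47 and 14.5 CPM in D0, 8.69 and 6.56 in D4, 9.01 and 7.67 in D7, and 4.75 and 2.68 in D10 (-1.72 ± 0.33, edgeR adjusted p = 0.0216 with the block against 0.131 without), a call lost without the D0 library of experiment 2 or either D7 library. IFI35 was at 18.4 and 13.6 CPM in D0, 14.4 and 8.65 in D4, 10.9 and 8.96 in D7, and 8.08 and 7.49 in D10 (-1.02 ± 0.21, edgeR adjusted p = 0.0267 with the block against 0.317 without), a call lost without either D0 library, either D7 library or the D10 library of experiment 1. All 3 later media gave lower values than D0 in both experiments. EPSTI1, an epithelial-stromal interaction protein, was at 5.78 and 5.31 CPM in D0, 3.72 and 2.98 in D4, 3.51 and 1.97 in D7, and 2.61 and 1.58 in D10 (-1.43 ± 0.30, edgeR adjusted p = 0.0314 with the block against 0.302 without), a call lost without any 1 library other than D10 of experiment 1. For IFI35 the D10 fall was larger in experiment 1, unlike that of most members.

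ISG20, an exonuclease that degrades single-stranded RNA, was the only member called higher. It had 3 and 9 counts in D0, 8 and 10 in D4, 7 and 15 in D7, and 16 and 30 in D10, or 0.251 and 0.655 CPM in D0 and 1.27 and 2.37 in D10. Both D10 libraries were above all of the others, and the log2 change was 1.98 ± 0.46 with the block (edgeR adjusted p = 0.0448 against 0.376 without). Leaving out any 1 of 7 libraries ended this call, the exception being the D10 library of experiment 1. Members without a call in this role group included IFI27, a mitochondrial protein, at 12.3 and 8.08 CPM in D0, 13.4 and 3.65 in D4, 12.8 and 4.18 in D7, and 8.95 and 0.710 in D10. IFI44L, a relative of IFI44, was at 3.10 and 4.73 CPM in D0, 1.78 and 1.27 in D4, 2.14 and 2.28 in D7, and 1.58 and 0.394 in D10 (edgeR adjusted p = 0.0728 with the block). Both had their lowest level in D10 in each experiment. TRIM22, a ubiquitin ligase, was at 130 and 190 CPM in D0, 93.2 and 155 in D4, 110 and 168 in D7, and 104 and 149 in D10. PLSCR1, which moves membrane lipids, was at 20.7 and 25.9 CPM in D0, 13 and 14.6 in D4, 15.4 and 16.7 in D7, and 13.7 and 32.2 in D10, with its D10 libraries on opposite sides of D0. CMPK2, a mitochondrial nucleotide kinase, had 11 and 10 counts in D0 and 7 and 0 in D10.

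The day at which a member first lay at least 1 log2 unit below D0, that is, at least 2-fold lower, differed between experiments. In experiment 1 it was D4 for 4 members (IFIT2, OAS2, GBP1 and XAF1), D7 for 1, D10 for 6, and 37 never reached it. In experiment 2 it was D4 for 15 members, D7 for 2, D10 for 18, and 13 never reached it. Only 4 members had the same day in both, IFIT2 and OAS2 with D4 and ISG15 and OAS1 with D10. Another 26 reached it in experiment 2 alone, HERC5 and IFI35 in experiment 1 alone, and 11 in neither. The lowest level was in D10 for 26 members in experiment 1, for 39 in experiment 2 and for 25 in both. In D4, 13 members of experiment 1 and 6 of experiment 2 were at their lowest. The shares of all genes are not given for these counts. They include the 5 members with too few reads to be tested, such as OASL and RSAD2 among the 15. In experiment 1, XAF1 had 5 counts in D0 and 1 in D4, and HERC5 had 4 in D0 and 1 in D7.

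The experiments were closer in direction than in size. Differences from D0 in D10 had the same sign in 40 of 48 members (36 below, 4 above). The value was more negative in experiment 2 in 43 of 48, and the changes differed by 1 log2 unit or more in 26. Of all genes tested, 32.3% were below D0 in both, and the shares for the other counts are not given here. Over all genes tested the SD of the D10 difference was 0.59 in experiment 1 and 0.77 in experiment 2. Across the 48 members the correlation of the change in experiments 1 and 2 was 0.45 in D4, 0.38 in D7 and 0.62 in D10, against 0.40, 0.47 and 0.60 across all genes tested. These correlations are across genes, which are not independent replicates, and the D0 libraries enter all 3.

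**Figure D4:**
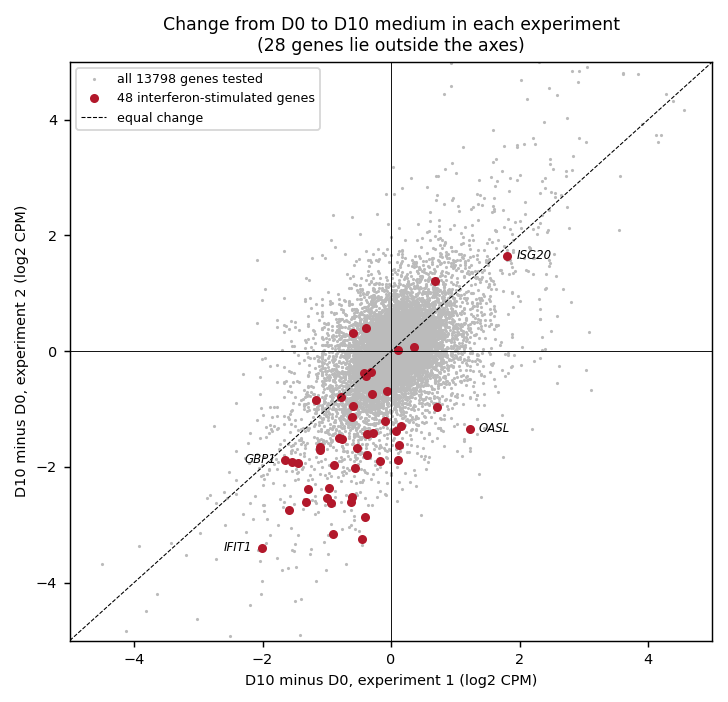
Change from D0 to D10 medium in experiment 1 (horizontal) and experiment 2 (vertical), as differences of log2 CPM, for the 48 genes (red) and the 13798 genes tested (grey, of which 28 lie outside the axes). Of the red points 36 lie below 0 on both axes, and 43 of 48 are below the line of equal change.

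The members were also ordered by their level in D0. Of the 16 members with the highest CPM in D0 (36.7 to 481), 14 were below D0 in both experiments in D10, with medians of -0.51 and -1.25. For the middle 16 (5.77 to 36.2 CPM) it was 11, with -0.49 and -1.64, and for the lowest 16 (0.115 to 5.55 CPM) it was 11, with -0.71 and -1.73. Signs were opposite in 1, 5 and 2 members of these groups. The blocked fit called 7, 3 and 4 of them, against 4.99% of all genes tested. The lowest 16 include all 5 members that had too few reads to be tested, so that fewer of them could be called. Across the 48 genes the log2 level in D0 and the D10 change correlated at -0.36 in experiment 1 and -0.08 in experiment 2, and both measures share the D0 library.

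The members were also split by the ISRE core in their promoter. The 24 with the core had median D10 differences of -0.61 and -1.64 and the 14 without it -0.41 and -1.73. With the block, 10 of the 24 were called and 1 of the 14, against 4.99% of all genes tested. HERC5 and RTP4 among the 24, and RSAD2 and XAF1 among the 14, had too few reads to be called. The difference between these groups was not tested. Of the 14 genes called with the block, 10 hold the core, among them IFIT1, ISG15, IFI6 and IFI44 with the stretches printed above, and ISG20, which rose. IFI35 has a promoter entry without the core, and IFIT2, IFITM2 and OAS2 have none.

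The experiments differed in levels across all genes, the members included. With group and experiment in 1 edgeR fit, 10 members were lower in experiment 2, 23.3% of the 43 tested against 16.2% of all genes, and 4 were higher, 9.30% against 18.6%. ISG15 was lower by 1.22 ± 0.13 on the log2 scale, that is, the experiment 2 value minus that of experiment 1 was -1.22 (edgeR adjusted p = 0.000880). Among the 10 members lower in experiment 2, IFI27 (-1.70 ± 0.36), IFI6 (-1.58 ± 0.21) and OAS2 (-1.34 ± 0.31) showed the widest gaps, and IFITM1, IFITM2, IFITM3, IRF7, SP110 and UBE2L6 were also called lower, between -0.50 and -0.96. SAMD9 was higher (1.49 ± 0.27), as were GBP1 (0.61 ± 0.13), TRIM22 (0.60 ± 0.10) and IFIT5 (0.38 ± 0.11). The fit gives 1 difference over all 4 media, although that of IFI27 was -0.60 in D0 and -3.40 in D10. In D0 medium 26 members were higher and 22 lower in experiment 2, and in D10 medium 10 were higher and 38 lower. The shares of all genes on each side are not given here. All genes were also farther apart in D10, with 14.5% of them at least 1 log2 unit apart, against 8.87% in D0. Of the 14 genes called between experiments, 6 were also among the 14 called in D10 with the block, an overlap that was not compared with all genes.

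**Figure D5:**
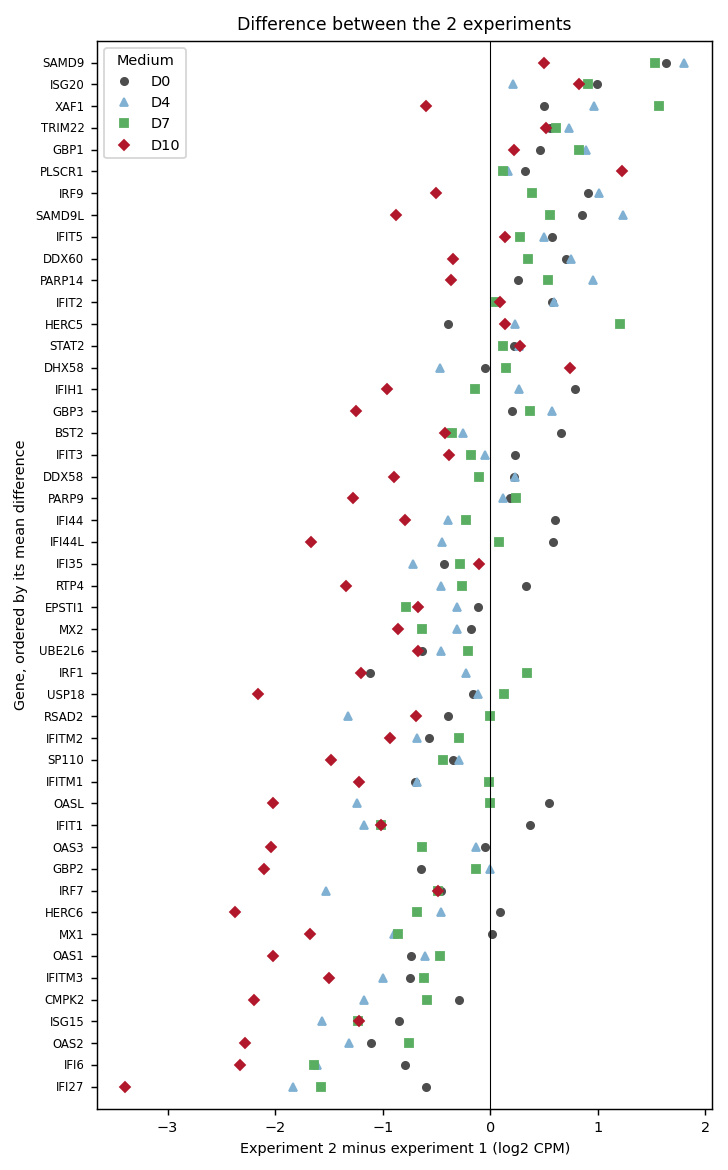
Difference between experiments 2 and 1 (log2 CPM) for each of the 48 genes in each of the 4 media, with genes ordered by their mean difference. In D0 (grey circles) 26 genes lie right of 0, and in D10 (red diamonds) 38 lie left of it.

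Few other genes of the pathway were called, in lists too short to show a difference from all genes. Of all genes tested, edgeR called 0% without and 0.275% with the block in D4, and 0% and 1.25% in D7. In D10 it called 0.29% without and 4.99% with the block. None of the 8 tested receptors and kinases (IFNAR1, IFNAR2, IFNGR1, IFNGR2, IL10RB, JAK1, JAK2 and TYK2) was called in D4, D7 or D10 by edgeR without or with the block, 0 had an unadjusted p under 0.05 in either fit, and their median D10 differences were 0.14 and 0.10. Of 9 ligands looked for, only IFNE, an interferon of epithelia, was found in the count table. It had 0 and 3 counts in D0 and 3 and 13 in D10, and D10 differences from D0 of 1.34 and 1.66. IFNE was not called in any medium by either edgeR fit. Its unadjusted p was under 0.05 in D7 without the block, and in D4, D7 and D10 with it. None of 10 tested genes of nucleic acid sensing and none of 9 of antigen processing, B2M and TAP1 among them, was called in any medium by either edgeR fit. In D10 the unadjusted p was under 0.05 for 0 and 0 of these without the block, and for 3 and 0 with it.

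CXCL10, a chemokine that interferon induces, went the other way. It was at 1.76 and 1.38 CPM in D0, 1.40 and 1.57 in D4, 7.64 and 3.34 in D7, and 45.0 and 27.4 in D10. Every D10 library was above every other library, and the change was 4.52 ± 0.49 on the log2 scale (edgeR adjusted p = 0.0181 without and 0.000324 with the block). Its relatives CXCL9 and CXCL11 had at most 4 and 19 counts and were not tested. In D7 it was called higher with the block alone.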

How the data were processed

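RNA of 8 recipient cultures was sequenced as poly(A) libraries by the authors. The submitters' processing notes name STAR 2.5, DESeq2 and GRCh38 (hg38). The counting tool and its strand setting are not given in the sources used here. The authors deposited raw counts per gene, used here, and 8 columns of RPM, rescaled to library depth by the authors and not used. One column header reads DO and was taken as D0.

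The members and the other gene lists were chosen with earlier results of these data known. Members were matched by symbol. Counts were filtered with filterByExpr, which left 13798 genes, scaled by TMM and fitted with edgeR 4.0.16 (R 4.3.3) by its quasi-likelihood test over all 8 libraries, by group. Benjamini-Hochberg adjustment ran over all genes tested, and genes were called at 0.05. DESeq2 1.42.0 was an alternative. Differences within an experiment are of log2 CPM with a prior count of 2. Replicate numbers are the 2 independent experiments. Same-numbered libraries deviated together, with correlations of 0.418 to 0.722 in all 6 pairs of groups, so that a fit with the replicate block was made and is given beside each result it changes. The p-values measure the spread between these 8 libraries. With total counts of 11708193 to 13395912, the floor of 3 counts was 0.224 to 0.256 CPM on the raw totals, and it covers counting error only.

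Levels in every library are given for members called in any comparison, for the 3 members with the highest mean CPM in D0 in each role, and for the 5 with the largest fitted rise and the 5 with the largest fitted fall in D10. Members at the floor are given as counts. Exon lengths, overlaps and 50-base words shared with other genes are from GENCODE 29, in which 99.6% of the gene identifiers were found. Promoter sequences were matched for 38 members. The list of transcription and feedback genes is not reported here. Other settings tried were other scalings, other filters, the compared groups alone and leaving out each library. The scripts were tested on simulated data.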

Additional observations from a re-analysis of the deposited data

Results flagged for a closer look

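For 3 members every library of 1 medium lay on one side of D0 and every library of another medium on the other side, as differences of log2 CPM from D0 of the same experiment. D10 was not tested against D4, and RSAD2 had too few reads to be tested. PARP14 was tested in the steps between neighbouring media and was not called. With the block its edgeR adjusted p was 0.9155 for D7 against D4 and 0.4587 for D10 against D7. All of these differences from D0 share the D0 libraries. PARP14 differed from D0 by -0.76 and -0.07 in D4, by 0.15 and 0.42 in D7 and by -0.06 and -0.69 in D10. Its mean difference was 0.70 higher in D7 than in D4, and the D10 minus D7 value was -0.66. IFITM2 differed from D0 by 0.17 and 0.06 in D4 and by -0.59 and -0.95 in D10, a D10 minus D4 value of -0.885. RSAD2, with at most 6 counts in any library, differed by -0.34 and -1.27 in D4, by -0.67 and -0.28 in D7 and by 0.36 and 0.07 in D10. The D10 minus D4 value was 1.02 and the D10 minus D7 value 0.69, both resting on groups at the floor of 3 counts.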

How the results depend on the processing

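The number of members called in D10 against D0, 0 in the edgeR fit by group, was 14 with the replicate block, 5 with DESeq2, 5 with no filter on low counts, and 0 to 2 with 1 library left out, the 2 arising without the D10 library of experiment 1. With the block it was 14, against 3 to 33 with 1 library left out (9 without the D0 library of experiment 1, 3 without that of experiment 2, 9 and 8 without those of D4, 10 and 7 without those of D7, 33 and 10 without those of D10) and 26 with no filter. The block changed no call in the other media. For fits with no filter or with 1 library left out, the share of all genes called is not given here. Counts of members called in those fits show dependence on the processing alone. Between experiments, 14 calls became 25 with no filter and 10 to 20 with 1 library left out. The fitted median ran from -0.70 to -0.47 in D4 and from -0.46 to -0.15 in D7 when 1 library was left out, the widest values arising without the D4 and D7 libraries of experiment 1. In D10 it was -1.04 with all libraries, -0.62 without the D10 library of experiment 2 and -1.63 without that of experiment 1. With a step of 0.5 in place of 1 log2 unit, the first day below D0 was D4 for 16, D7 for 3, D10 for 13 and never for 16 members in experiment 1, and D4 for 28, D7 for 0 and never for 5 in experiment 2. The D10 value of 3 uncalled members changed sign. With 1 library left out, DHX58 (0.06) ran from -0.37 to 0.40, IRF1 (0.07) from -0.63 to 0.74 and PLSCR1 (-0.02) from -0.77 to 0.48, and PLSCR1 was 0.0344 with raw totals. The cause of these changes was not tested. With 2 libraries a group, and at most 30 counts in any library for ISG20, the depth limits the lowest members.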
